A study of Mus musculus with 4 samples.

Results

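The variable (V) genes of the T cell receptor were described as one gene set in single-cell RNA sequencing of mouse blood. Every listed feature whose symbol begins with Trav (alpha chain) or Trbv (beta chain) was a member, which gave 163 genes of 32287, 128 Trav and 35 Trbv. The cells were white blood cells from C57BL/6J mice, 10 weeks old, all of which had received acute lymphoblastic leukaemia cells and the tyrosine kinase inhibitor dasatinib. Blood was drawn 1 week into treatment, when leukaemia was in remission in all of them, and dosing went on for 4 more weeks. Mice were sorted into a Cured group (6 mice) and a Relapsed group (6 mice) by their state at day 100, so the groups differ in what happened after sampling and share strain, leukaemia and drug. The frozen cells were thawed, sorted for live cells and pooled from 3 mice per library, so that each group had 2 libraries (replicates 1 and 2), and a pool is the unit of replication.

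A T cell makes its receptor chains by joining 1 V segment to a joining segment (with a diversity segment between them in the beta chain) and splicing the result to a constant region (Trac, Trbc1 or Trbc2). The V segment encodes most of the part that faces peptide and MHC, and each clone keeps its choice for life, so the V genes read in a blood sample describe which clones it holds. CD8 and CD4 T cells see peptides on MHC class I and class II, and the beta chain segment used is known to differ between them. Ccl5 encodes a chemokine made by antigen-experienced and cytotoxic T cells and by natural killer (NK) cells.

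T cells were cells with at least 2 UMIs (unique molecular identifiers, 1 per captured RNA molecule) of Cd3d, Cd3e and Cd3g together and at most 1 of the B cell genes Cd79a, Cd79b and Ms4a1. There were 438 and 391 such cells in Cured replicates 1 and 2, and 271 and 308 in Relapsed replicates 1 and 2. Of these 1408 cells, 901 had UMIs of Cd8a or Cd8b1 and none of Cd4 (CD8 cells), 98 had UMIs of Cd4 only (CD4 cells), 404 had neither and 5 had both. Ccl5-positive cells (at least 2 Ccl5 UMIs) numbered 131, 135, 82 and 121 in the same order of libraries, or 29.9%, 34.5%, 30.3% and 39.3% of T cells.

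The segments that the results turn on are shown by their last 30 bases in GENCODE M21 (GRCm38, the assembly that mm10 names), 5′ to 3′ on the coding strand, with the codon of the conserved cysteine that opens the third complementarity-determining region in capitals. Trbv12-1 and Trbv12-2, Trbv17, Trbv15 and Trbv3 differed between CD8 and CD4 cells in summed UMIs. Trbv31 lies alone on the minus strand at the far end of its locus.
Trbv12-1 (chr6:41114038-41114067, plus strand): tctgctatgtacttcTGTgccagctctctc
Trbv12-2 (chr6:41119335-41119364, plus strand): tctgccgtgtacttcTGTgccagctctctc
Trbv17 (chr6:41163527-41163556, plus strand): tgccatgtacctcTGTgctagcagtagaga
Trbv15 (chr6:41141629-41141658, plus strand): agctgtgtatctgTGTgccagcagtttagc
Trbv3 (chr6:41048799-41048828, plus strand): gtgtacttcTGTgccagcagcttagccaca
Trbv31 (chr6:41557691-41557720, minus strand): ctctggcttctacctcTGTgcctggagtct
Of the 50-base stretches in the whole segments of Trbv12-1 and Trbv12-2, 100% and 98.8% are found in transcripts of no other gene. The 3 Trbv13 genes lie between and beside them in the locus and include the most used Trbv gene.
Trbv13-1 (chr6:41116439-41116468, plus strand): catctttgtacttcTGTgccagcagtgatg
Trbv13-2 (chr6:41121803-41121832, plus strand): catcagtgtacttcTGTgccagcggtgatg
Trbv13-3 (chr6:41130556-41130585, plus strand): cagctgtatatttcTGTgccagcagtgatg
On the alpha chain, Trav13-1 differed with Ccl5. Its locus was duplicated in evolution, and copies carry a d or an n in their name: the copies of Trav13-1 are shown with it, and Trav11 and its copy Trav11d, the gene of the invariant NKT cell receptor, stand for segments that cannot be told from their copies.
Trav13-1 (chr14:53545496-53545525, plus strand): actcaggcacttatctcTGTgctttggaac
Trav13d-1 (chr14:52851837-52851866, plus strand): actcaggcacttatctcTGTgctatggaac
Trav13n-1 (chr14:53162881-53162910, plus strand): actcaggcacttatctcTGTgctatggaac
Trav11 (chr14:53519830-53519859, plus strand): acactgccacctacatcTGTgtggtgggcg
Trav11d (chr14:52824883-52824912, plus strand): gacactgccacctacatcTGTgtggtgggc

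The 4 libraries held 16157 cell barcodes and 37141352 UMIs (7184045 to 10840397 per library), and 15439 cells were kept. Relapsed replicate 1 stood apart: 279 of its barcodes had fewer than 200 genes, against 24 to 28 in the others, and 15.5% of its T cells carried a UMI of 4 globin genes, against 1.60% to 2.05%. Median UMIs per T cell were 3523 and 3381 in Cured and 3095 and 3163 in Relapsed libraries, so a depth gap runs alongside every comparison of the groups. Barcodes found in more than 1 library numbered 131. Nothing in the labels ties a cell to a mouse. An expanded clone of 1 mouse thus cannot be told apart from like cells of all 3 mice of a pool. The edgeR tests below use a spread between pools that is estimated largely over all genes, not gene by gene. The weight of that shared estimate (median prior degrees of freedom) was infinite for Cured against Relapsed in CD8 cells and 22.2 to 116 in the other comparisons. These p-values can understate the spread of a V gene whose UMIs come from few cells.

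Beta chain transcripts were read in most T cells and in almost no B cells. A Trbv UMI was found in 90.6% and 89.3% of T cells in Cured and in 81.6% and 87.3% in Relapsed libraries, and a Trav UMI in 59.8%, 63.2%, 37.6% and 50.3%. With each cell thinned to 1000 UMIs the Trbv shares were 67.0%, 68.4%, 50% and 65.6%. In B cells (medians of 1880 to 2356 UMIs) a Trbv UMI was found in 0.302% to 0.436% and a Trav UMI in 0.0302% to 0.224% of cells. The T cell values are far above these. The B cells were chosen without CD3 UMIs, so they may hold less free T cell RNA than other cells. Relapsed replicate 1 was the lowest library in each of these T cell shares.

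All 10 T cell markers on the list, 3 of them the CD3 genes of the gate, were present in each library. Markers of other cell types were read in the gated cells too. At least 1 UMI of the 7 NK markers was found in 15.3% to 21.4% of T cells by library, of the 5 B cell markers (3 of them limited by the gate) in 36.5% to 48.8%, and of the 4 monocyte and neutrophil markers in 8.12% to 16.1%. Per 10000 UMIs these lists took 3.18 to 9.82, 1.57 to 2.10 and 3.52 to 25.1. Of single genes, Trdc, the delta chain constant gene, was found in 35 cells and Ncr1, an NK cell receptor, in 44. T cells without any Trbv UMI numbered 172. Of these, 102 had a UMI of Trbc1 or Trbc2, 87 were Ccl5-positive, 20 had a Trdc UMI and 30 an Ncr1 UMI. Among the 4 markers of invariant NKT and MAIT cells (innate-like T cells with a fixed alpha chain), Klrb1c gave nearly all the UMIs and Zbtb16 was found in at most 2 cells of a library, and Foxp3, which defines regulatory T cells, in at most 1.

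Of the 35 Trbv genes, 24 had a UMI in T cells and 11 had none, and of the 128 Trav genes 74 had a UMI and 54 had none. GENCODE types 13 Trbv and 20 Trav members as pseudogenes, and these took 0.570% of Trbv and 1.03% of Trav UMIs. Each cell was then assigned its top gene, the V gene of a chain with most UMIs, leaving out ties. This gave a Trbv call for 390, 343, 210 and 263 cells (Cured 1 and 2, Relapsed 1 and 2) and a Trav call for 237, 229, 95 and 140. The top gene held 92.0% to 93.3% of a cell's Trbv UMIs and 85.4% to 90.9% of its Trav UMIs, taken over each library.

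Many Trav segments share most of their sequence with a copy, and those with no sequence of their own had almost no UMIs. The median Trav gene had 36.8% of its 50-base stretches in no other gene, against 100% for Trbv, and 42 Trav genes had none, against 1 Trbv gene. Among Trav genes that GENCODE does not type as pseudogenes, the 38 with no stretch of their own held 4 UMIs in all. The 29 with up to 50% of their own had a median of 19.0 UMIs, and the 41 with more had a median of 23.0. Across the 108 genes the rank correlation between own sequence and UMIs was 0.70, given as a description, since copies share sequence and libraries. How reads that match several copies were counted is not given in the sources used here, so a Trav gene at 0 cannot be read as unused. Genes of the base cluster took 76.6% of Trav UMIs, d copies 9.74% and n copies 13.7%.

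**Figure D1:**
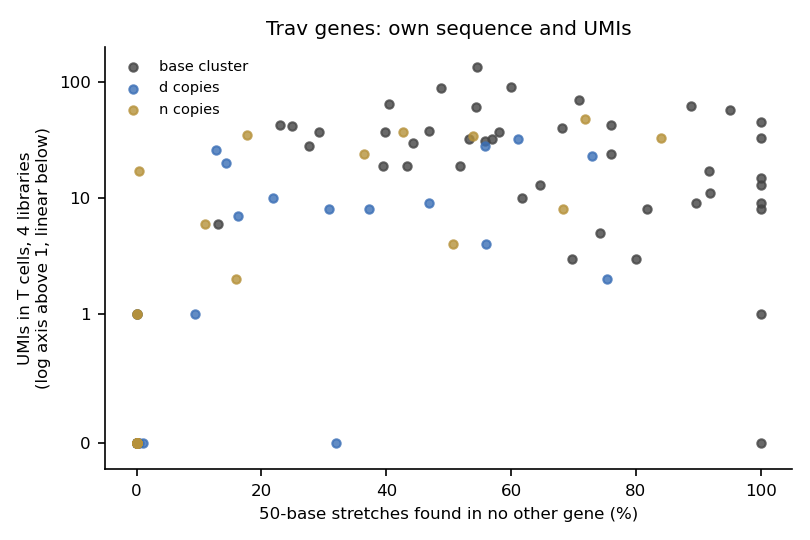
Each point is a Trav gene typed as functional in GENCODE: the horizontal axis is the percent of its 50-base stretches found in no other gene, the vertical axis its UMIs in T cells of the 4 libraries (log scale above 1, linear below), and the colour its copy cluster. Genes at 0% on the horizontal axis lie at 0 or 1 UMI.

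Trbv13-2 had the highest mean share of the beta chain genes and the highest or second highest share in each library, and usage fell off slowly behind it. It was the top gene of 11.0% of called cells in Cured replicate 1 (exact 95% interval 8.10 to 14.6%), 10.8% in Cured replicate 2 (7.71 to 14.6%), 12.9% in Relapsed replicate 1 (8.65 to 18.2%) and 9.13% in Relapsed replicate 2 (5.93 to 13.3%). The intervals cover counting error only, and they overlap, so the order of neighbouring genes within a library is not resolved. Trbv3 was at 6.92%, 7.87%, 7.62% and 11.4% (mean 8.46%), above Trbv13-2 in Relapsed replicate 2. Behind them by mean came Trbv19 with 7.32%, Trbv16 with 7.26%, Trbv13-3 with 6.36%, Trbv12-1 with 5.95% and Trbv12-2 with 5.90%. The 5 most used genes together made up 40.3% of called cells and the 10 most used 67.2%, and 19 genes were the top gene of a cell in all 4 libraries.

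**Figure D2:**
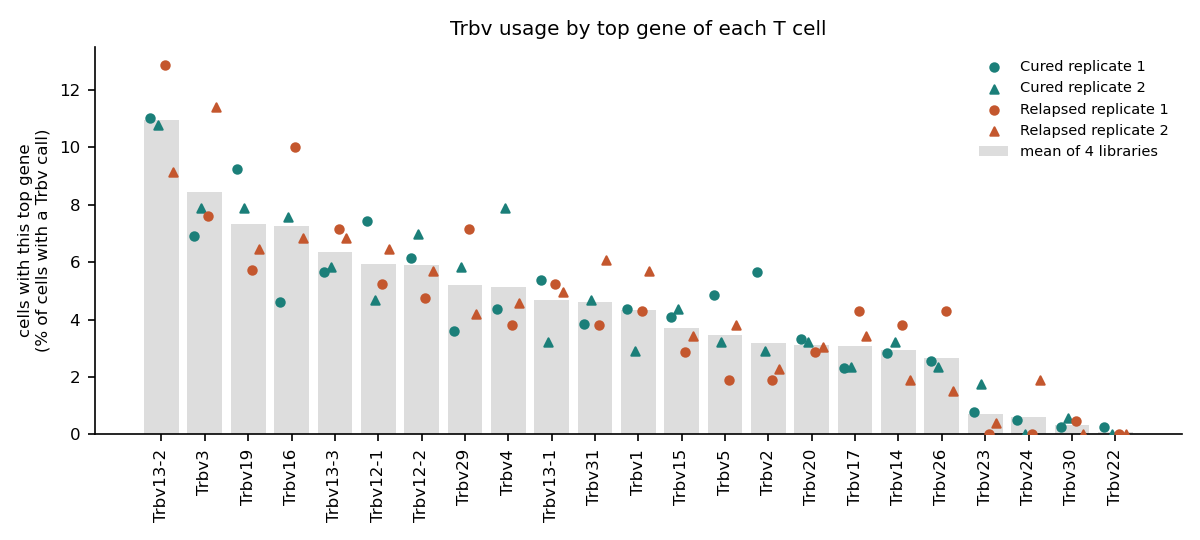
Bars give the mean over 4 libraries of the percent of cells with a Trbv call whose top gene was the one named, and points give each library (circles replicate 1, triangles replicate 2, green Cured, orange Relapsed). Trbv13-2 has the highest mean, with 9.13% to 12.9% by library, Trbv3 lies above it in Relapsed replicate 2, and the points of the groups intermix for most genes.

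Alpha chain usage was spread over more genes. Trav13-1 had the highest mean, 7.46%, with 4.64% and 7.86% of called cells in Cured and 9.47% and 7.86% in Relapsed libraries. It was below Trav6-7-dv9 and Trav9-1 (5.06% each) in Cured replicate 1 and below Trav14-1 (8.57%) in Relapsed replicate 2. By mean it was followed by Trav6-7-dv9 with a mean of 5.76%, Trav14-1 with 5.16%, Trav3-3 with 4.35% and Trav12-2 with 4.18%. The 5 most used genes made up 26.9% of calls and the 10 most used 40.9%. By family, which joins the copies that cannot be told apart, Trav13 led with a mean of 14.9% of called cells, then Trav14 with 12.8%, Trav7 with 10.9%, Trav6 with 10.3% and Trav12 with 10.0%.

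The invariant alpha chains were nearly absent from the calls. Trav1, the gene of the MAIT cell receptor, was the top gene of 4, 1, 2 and 1 cells, and all of its 50-base stretches are its own. Trav11 was the top gene of 1 cell with 1 UMI and Trav11d of none, but neither has a stretch of its own. Traj18, the joining segment of the invariant NKT receptor, had 1 UMI in 1 library, and Traj33, that of the MAIT receptor, had 0. All Traj, Trbj and Trbd features together gave 4, 2, 1 and 0 UMIs, so these counts bear on no joining segment.

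Whether V gene usage differed between mice that later stayed in remission and mice that later relapsed was asked first of the usage shares. In Trbv usage, the 2 Cured libraries differed from each other by 13.5% (the sum of absolute differences in share, divided by 2) and the 2 Relapsed libraries by 16.5%, while pairs across groups differed by 14.8% to 17.9%. In Trav usage the pairs within groups differed by 31.5% and 38.0% and those across groups by 34.0% to 41.0%. Libraries of one group were thus about as far from each other as from the other group. With 2 libraries against 2, no exact two-sided permutation test can go below 0.333, so the shares are a description.

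Among the 23 Trbv genes with a call, the shares did not overlap between groups for 6 higher in Cured (26.1%) and 2 lower (8.70%). Over all 7166 genes tested in T cells, scaled UMI levels, a different measure, did not overlap for 19.4% with Cured higher and 18.7% with Cured lower. Trbv19 was higher in both Cured libraries, at 9.23% and 7.87% against 5.71% and 6.46%. Trbv2 was at 5.64% and 2.92% against 1.90% and 2.28%, and Trbv17 was lower, at 2.31% and 2.33% against 4.29% and 3.42%. Trbv13-3 was also lower, at 5.64% and 5.83% against 7.14% and 6.84%.

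Among the 67 Trav genes with a call, 10 did not overlap in the direction of Cured (14.9%) and 10 in the other (14.9%). Both are below the 19.4% and 18.7% of all genes whose UMI levels did not overlap. Trav14-1 was the top gene of 7 of 237 and 4 of 229 cells in Cured and of 7 of 95 and 12 of 140 in Relapsed libraries, or 2.35% ± 0.853 against 7.97% ± 0.851 (SD, n = 2 each). In UMIs scaled to a common library total (CPM) the groups overlapped, at 10.7 and 8.85 in Cured and 10.0 and 19.7 in Relapsed libraries. In CD8 cells alone they did not, at 8.29 and 7.27 against 14.4 and 23.1 CPM. Trav9-1 was higher in Cured, with 12 and 9 cells in Cured and 2 and 0 in Relapsed libraries, where 0 of 140 cells has an exact 95% upper limit of 2.60%. The exact permutation p is 0.333 for each of these shares, the smallest the design allows.

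V gene transcripts as a whole stood higher in each Cured library than in any Relapsed one, while the levels of constant region transcripts overlapped. Trbv UMIs per 10000 UMIs were 13.5 and 16.6 in Cured and 8.73 and 12.9 in Relapsed libraries. Trav UMIs per 10000 were 4.26 and 4.96 against 1.97 and 3.02, a ratio of group means of 1.85. The groups did not overlap in either, with Relapsed replicate 1 the lowest. Trac stood at 1.74 ± 0.285 against 1.85 ± 0.392 UMIs per 10000 and Trbc1 and Trbc2 together at 4.91 ± 0.588 against 5.20 ± 0.669 (SD, n = 2), which overlap. The ratio of Trbv to Trbc UMIs was 2.99 and 3.12 in Cured and 1.54 and 2.73 in Relapsed libraries, and that of Trav to Trac 2.77 and 2.56 against 0.927 and 1.93.

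The same ratio was lower in Relapsed libraries in B cells, which rearrange other V genes. The ratio of immunoglobulin kappa V to Igkc UMIs was 6.90 and 6.60 in Cured and 3.07 and 5.73 in Relapsed libraries. Heavy chain V to Ighm and Ighd was 1.24 and 1.06 against 0.205 and 0.761. In all 4 ratios Relapsed replicate 1 was lowest and Relapsed replicate 2 lay between it and the Cured libraries. Each comparison has an exact permutation p of 0.333. The part of library quality in the V gene level was not tested.

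**Figure D3:**
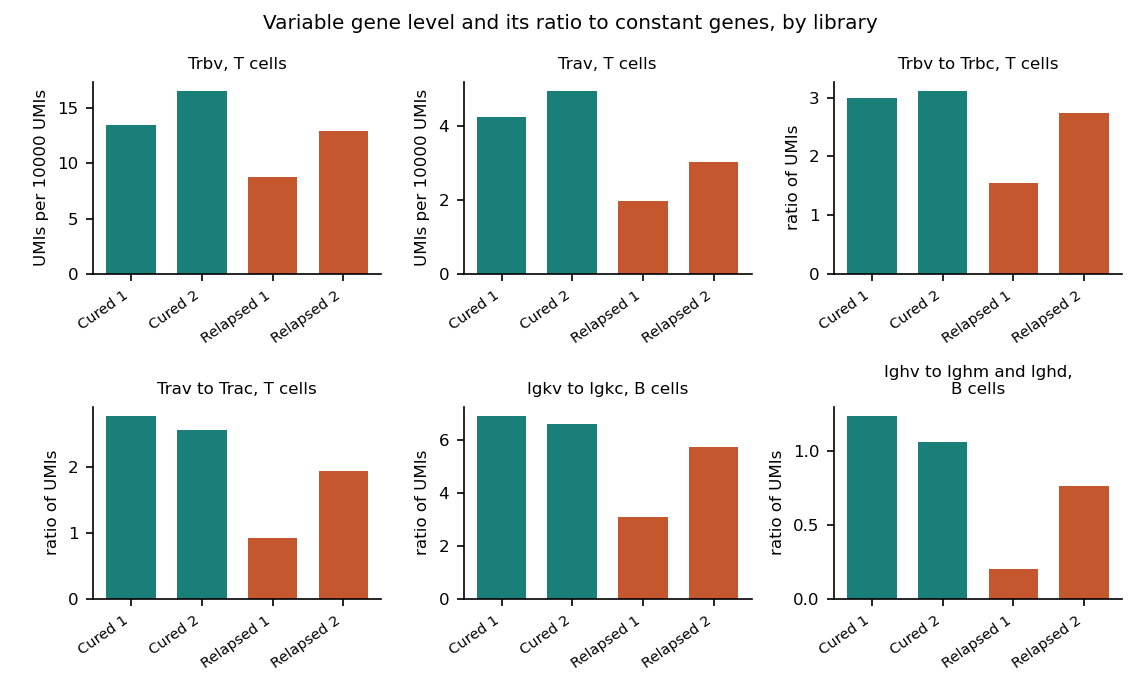
Bars give 1 library each (green Cured, orange Relapsed): UMIs of Trbv and Trav genes per 10000 UMIs of T cells, and the ratio of V gene UMIs to constant gene UMIs in T cells (Trbv to Trbc, Trav to Trac) and in B cells (Igkv to Igkc, Ighv to Ighm and Ighd). Relapsed replicate 1 is the lowest bar in every panel, from 8.73 Trbv UMIs per 10000 down to a ratio of 0.205 for Ighv.

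Single V genes were tested with edgeR's quasi-likelihood test on UMIs summed per library, with adjustment over all genes tested. In all T cells 36 of the 163 V genes had enough UMIs to be tested, and 0 passed at an adjusted p of 0.05, where 0.0140% of all genes were called higher; 13 had an unadjusted p under 0.05, and DESeq2 also called 0. The V genes leaned one way: 28 of 36 had a positive log2 fold change (Cured over Relapsed), with a median of 0.65 against -0.0027 over all genes. Values did not overlap between groups for 19 of 36 with Cured higher, where 19.4% of all genes did so, and for 1 with Cured lower, where 18.7% did. In counts of cells with a UMI in place of UMIs, 11 of the 23 V genes past the count filter were positive, with a median of -0.07, and with no filter 68 of 98, with a median of 0.42. Trav9-1 was at 21.5 and 19.8 CPM (UMIs scaled to a common library total, with TMM factors) in Cured and 3.77 and 0.984 CPM in Relapsed libraries, a log2 fold change of 3.16 (SE 0.59, edgeR adjusted p = 0.0540) that just missed the threshold. It passed with the replicate number as a block (edgeR adjusted p = 0.000190). Without Relapsed replicate 2, 9 V genes passed, Trav9-1 among them, and without Cured replicate 1, 2 others did (Trbv12-2 and Trbv23). Calls over all genes rose as well without Relapsed replicate 2, to 208 higher and 219 lower of 8193 tested, and the 1 Relapsed library left was then replicate 1, which stood apart. Without Cured replicate 1, 12 were higher and 2 lower of 7351.

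In CD8 T cells 3 of 26 V genes tested were higher in Cured libraries and 0 lower, where 0.122% of all genes were called higher and 0.350% lower. Trbv29 was at 67.2 and 169 CPM in Cured and 52.3 and 53.5 in Relapsed libraries, a log2 fold change of 1.14 (SE 0.26, edgeR adjusted p = 0.0141). Trbv12-2 was at 114 and 224 CPM against 97.4 and 91.1, a log2 fold change of 0.84 (SE 0.20, edgeR adjusted p = 0.0182). Trbv13-2, the gene with the highest mean usage, was at 156 and 236 CPM against 97.4 and 139, a log2 fold change of 0.71 (SE 0.19, edgeR adjusted p = 0.0497).

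The groups do not overlap for these 3 genes, which are among 9 of 26 V genes with Cured higher without overlap, where 18.6% of all genes were so, and 1 lower, where 19.0% were. Cured replicate 2 is the high library in each of the 3. Without it 0 V genes passed and the log2 fold changes fell to 0.34 for Trbv29, 0.28 for Trbv12-2 and 0.39 for Trbv13-2. UMIs of a V gene come from few cells: the 163 Trbv29 UMIs of CD8 cells in Cured replicate 2 came from 17 cells, with up to 25 in 1 cell, and the 37 of Relapsed replicate 2 from 11 cells. In counts of cells with a UMI, Trbv29 and Trbv13-2 had log2 fold changes of -0.13 and -0.11 and 0 V genes passed. With DESeq2 0 passed either, at log2 fold changes near the same (1.16, 0.84 and 0.72 for Trbv29, Trbv12-2 and Trbv13-2) with larger standard errors (0.67, 0.35 and 0.31), and with cells thinned to equal depth 0 passed. Without Relapsed replicate 1 or Cured replicate 1, Trbv29 and Trbv12-2 passed, and without Relapsed replicate 2, 7 V genes did, where calls over all genes rose to 85 higher and 133 lower of 6852 with replicate 1 the only Relapsed library.

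CD8 and CD4 cells of the same libraries differed in the summed UMIs of some beta chain genes. With the library as a block, 3 of 18 Trbv genes tested were higher in CD8 cells, where 4.74% of all genes were called higher, and 4 were lower, where 1.64% were. No Trav gene had enough UMIs to be tested. The CD4 sums rest on 31, 40, 15 and 12 cells, with medians of 2088.5 to 2751 UMIs against 3274 to 3846.5 in CD8 cells.

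The Trbv12 genes, which encode the Vβ5 chains, were on the CD8 side. Trbv12-2 stood at 130, 259, 115 and 105 CPM in CD8 cells (Cured 1 and 2, Relapsed 1 and 2) and at 0, 59.2, 0 and 0 in CD4 cells, a log2 fold change of 2.87 (SE 0.46, edgeR adjusted p = 9.62e-07). Trbv12-1 stood at 121, 69.7, 64.0 and 75.2 CPM in CD8 cells and 25.1, 16.9, 0 and 0 in CD4 cells, a log2 fold change of 2.49 (SE 0.59, edgeR adjusted p = 0.00144). Counted by cells, 1 or the other was the top gene of 122 of 808 called CD8 cells (15.1%, exact 95% interval 12.7 to 17.8%) and of 1 of 90 CD4 cells (1.11%, 0.0281 to 6.04%). By library the CD8 share was 18.3%, 14.5%, 12.5% and 13.3%, and the 1 CD4 cell was in Cured replicate 2.

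Trbv17 had UMIs in CD8 cells only among these 2 classes. It stood at 79.6, 93.7, 120 and 78.6 CPM in CD8 cells and at 0 in all 4 CD4 sums (edgeR adjusted p = 1.15e-06). Against a floor of 3 UMIs over all CD4 cells, it was at least 6.80-fold higher in CD8 cells. In cells the contrast is near what can be detected: 35 of 901 CD8 cells (3.88%) had a Trbv17 UMI, and for 0 of 98 CD4 cells a floor of 3 cells is 3.06%. It was the top gene of 28 of 808 CD8 cells (3.47%) and of 0 of 90 CD4 cells, where the exact 95% upper limit is 4.02%.

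The 4 genes on the CD4 side were Trbv15, Trbv3, Trbv1 and Trbv31. Trbv15 stood at 124, 108, 19.2 and 88.6 CPM in CD8 cells and 351, 211, 284 and 404 in CD4 cells, a log2 fold change of -1.76 (SE 0.29, edgeR adjusted p = 1.09e-05), lower in 4 of 4 libraries. It was the top gene of 29 of 808 CD8 cells (3.59%, exact 95% interval 2.42 to 5.11%) and 8 of 90 CD4 cells (8.89%, 3.92 to 16.8%). Trbv3 had a log2 fold change of -1.21 (SE 0.27, edgeR adjusted p = 0.000770) and was lower in CD8 cells of 4 of 4 libraries. Trbv1 had one of -1.36 (SE 0.32, edgeR adjusted p = 0.00172), lower in 3 of 4, and Trbv31 one of -1.25 (SE 0.38, edgeR adjusted p = 0.0246), lower in 4 of 4. As top genes of CD4 cells these rest on few cells. Trbv3 had 6.44% of CD8 cells (4.84 to 8.35%) and 9 of 90 CD4 cells (10%, 4.68 to 18.1%). Trbv1 had 4.08% (2.83 to 5.69%) and 6 of 90 (6.67%, 2.49 to 13.9%). Trbv31 had 3.47% (2.31 to 4.97%) and 6 of 90 (6.67%, 2.49 to 13.9%). For all 4 genes the intervals of CD8 and CD4 cells overlap.

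With no library block 2 of the 7 passed (Trbv12-1 and Trbv17), with CD4 cells defined by Cd4 or Cd40lg 4, and with DESeq2 2 (Trbv15 and Trbv3), which gave no adjusted p for 4 of the others. Thinned to equal depth, 4 Trbv genes could be tested and 1 passed (Trbv3), and in counts of cells with a UMI 0 passed, of 1 tested, or of 94 with no filter. Trbv31 did not pass without Relapsed replicate 1, Cured replicate 1 or Cured replicate 2, Trbv3 without Relapsed replicate 2, and Trbv1 without Cured replicate 2. The difference between CD8 and CD4 cells was not shown to differ between Cured and Relapsed libraries for any of the 18 genes: 0 passed edgeR's test of that difference, where 0.0316% of all genes did, and 5 had an unadjusted p under 0.05.

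**Figure D4:**
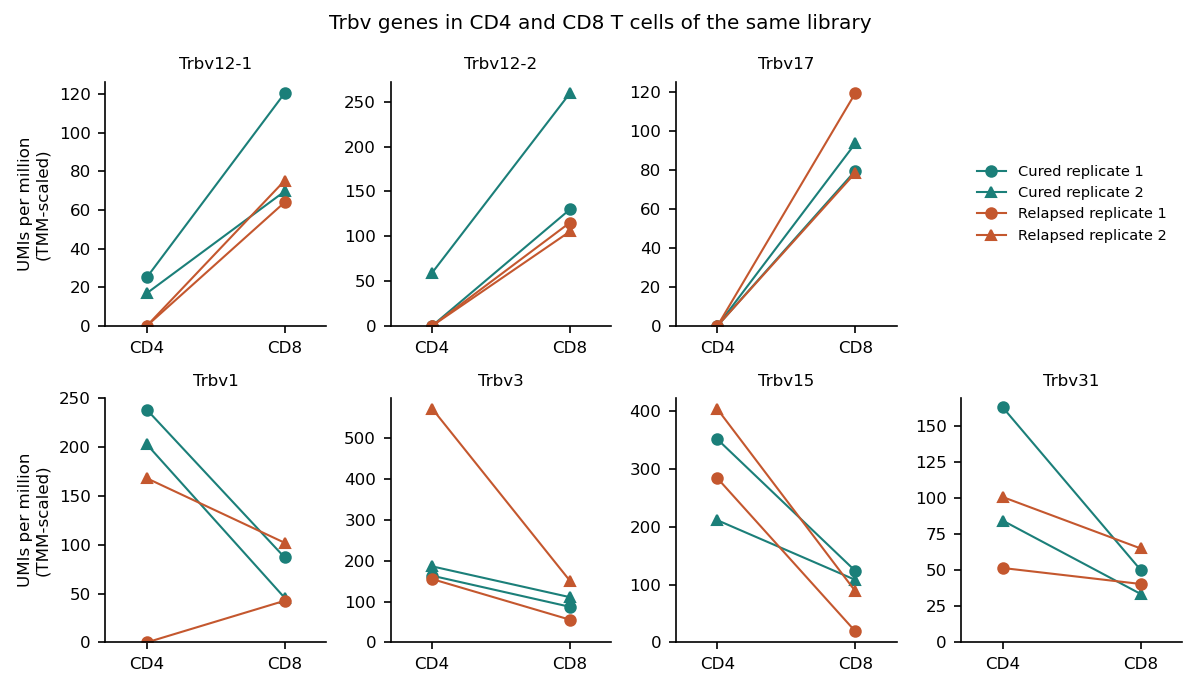
Lines join the CD4 and CD8 T cells of 1 library, in CPM (linear axes from 0, scaled for each gene), for the 7 Trbv genes past the test. Trbv12-1, Trbv12-2 and Trbv17 rise from CD4 to CD8 in every library, with Trbv17 at 0 in all CD4 sums, and Trbv1 falls in 3 of 4.

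Ccl5-positive and Ccl5-low T cells were compared within libraries to see whether antigen-experienced and cytotoxic cells used other V genes. Of 21 V genes tested over all T cells, 1 was higher in Ccl5-positive cells, where 8.87% of all genes were called higher, and 2 were lower, where 8.83% were. Trav13-1 was the gene on the higher side. It stood at 48.3, 54.9, 14.7 and 51.1 CPM in Ccl5-positive cells and 16.1, 28.4, 19.0 and 7.37 in Ccl5-low cells, a log2 fold change of 1.29 (SE 0.27, edgeR adjusted p = 0.000357), higher in 3 of 4 libraries with Relapsed replicate 1 the exception.

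In cells, Trav13-1 was the top gene of 31 of 237 Ccl5-positive cells with a Trav call (13.1%, exact 95% interval 9.06 to 18.0%) and 18 of 464 Ccl5-low cells (3.88%, 2.32 to 6.06%). By library, 6 of 11, 11 of 18, 3 of 9 and 11 of 11 Trav13-1 cells were Ccl5-positive. The whole Trav13 family, which joins Trav13-1 with its copies, differed by little in Cured replicate 1. Its shares were 12.5%, 19.7%, 25.0% and 23.0% of Ccl5-positive and 11.5%, 12.4%, 19.1% and 3.80% of Ccl5-low cells called by family. Within CD8 cells, where it was under the filter on low counts, it was the top gene of 17 of 151 Ccl5-positive cells (11.3%) and 11 of 304 Ccl5-low cells (3.62%). In counts of CD8 cells with a UMI and no filter, Trav13-1 was the 1 V gene that passed, and it was higher in Ccl5-positive cells. At the other end of the Trav genes with at least 20 cells, 4 of 30 Trav14-1 cells were Ccl5-positive (13.3%). The Trav13-1 call was lost with DESeq2 (adjusted p = 0.143). It was kept in 9 of the 10 alternatives that gave it an adjusted p, and the gene was under the count filter in the other 3 (without Cured replicate 2, thinned cells, and counts of cells with the filter).

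The 2 genes lower in Ccl5-positive T cells were Trbv2 and Trbv13-1. Trbv2 stood at 25.1, 15.4, 3.68 and 2.32 CPM in Ccl5-positive and 40.8, 27.2, 14.8 and 22.1 in Ccl5-low cells, a log2 fold change of -1.06 (SE 0.34, edgeR adjusted p = 0.0183), lower in 4 of 4 libraries. Trbv13-1 had a log2 fold change of -0.66 (SE 0.21, edgeR adjusted p = 0.0227), lower in 3 of 4. Neither passed without the library block, with DESeq2, without Relapsed replicate 1, without Relapsed replicate 2 or without the 73 T cells that carry a Trdc or Ncr1 UMI. Neither passed in counts of cells with no filter. Trbv13-1 also did not pass without Cured replicate 2, or with Ccl5-positive cells defined by at least 1 Ccl5 UMI. Its log2 fold change was 0.03 with thinned cells.

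NK and gamma delta T cell genes moved with Ccl5. The 7 NK markers took 11.3, 18.8, 7.36 and 19.8 UMIs per 10000 in Ccl5-positive T cells and 0.426, 1.72, 0.972 and 2.76 in Ccl5-low cells. Ncr1 was at 0 in Ccl5-low cells of all 4 libraries. The 4 gamma delta markers took 0.571, 0.602, 1.53 and 1.12 against 0.0484, 0.229, 0.0917 and 0.0331. A Trbv UMI was read in 84.0%, 81.5%, 78.0% and 81.0% of Ccl5-positive and 93.5%, 93.4%, 83.1% and 91.4% of Ccl5-low T cells. Without the cells that carry a Trdc or Ncr1 UMI, 1 V gene passed, Trav13-1.

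Within CD8 cells 2 of 17 Trbv genes tested were lower in Ccl5-positive cells, where 5.69% of all genes were called lower, and 0 were higher, where 6.22% were. Trbv3 stood at 20.7, 65.4, 41.5 and 103 CPM in Ccl5-positive and 108, 123, 55.4 and 157 in Ccl5-low CD8 cells, a log2 fold change of -1.04 (SE 0.22, edgeR adjusted p = 0.000472), lower in 4 of 4. Trbv14 stood at 50.4, 5.95, 17.8 and 0 CPM against 66.7, 57.8, 75.9 and 47.5, a log2 fold change of -1.58 (SE 0.43, edgeR adjusted p = 0.0233), also lower in 4 of 4. Trbv14 was the top gene of 4 of 230 Ccl5-positive and 26 of 578 Ccl5-low CD8 cells. With no library block neither passed, nor in counts of cells with no filter. Trbv3 did not pass with DESeq2. Trbv14 did not pass without Relapsed replicate 1, or with Ccl5-positive cells defined by at least 1 Ccl5 UMI. With thinned cells the 2 V genes that could be tested, Trbv13-2 and Trbv16, were both higher.

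Trbv31, whose mean did not differ with Ccl5 in CD8 cells beyond its error (log2 fold change -0.14, SE 0.96), moved in opposite directions in the groups. It stood at 5.92 and 17.8 CPM in Ccl5-positive and 65.3 and 38.6 in Ccl5-low CD8 cells of Cured libraries. In Relapsed libraries it stood at 65.1 and 103 CPM in Ccl5-positive and 23.3 and 35.6 in Ccl5-low cells. The effect of Ccl5 in Cured minus that in Relapsed was -3.61 on the log2 scale (SE 0.61, edgeR adjusted p = 0.00125), 1 of 3231 genes past this test (0.0310%). Over all T cells Trbv31 also passed it, as 1 of 4 of 4452 genes (0.0898%). The test of this difference was chosen after the data were seen. The Ccl5-positive sums rest on 2, 3, 4 and 8 CD8 cells with a Trbv31 UMI.

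**Figure D5:**
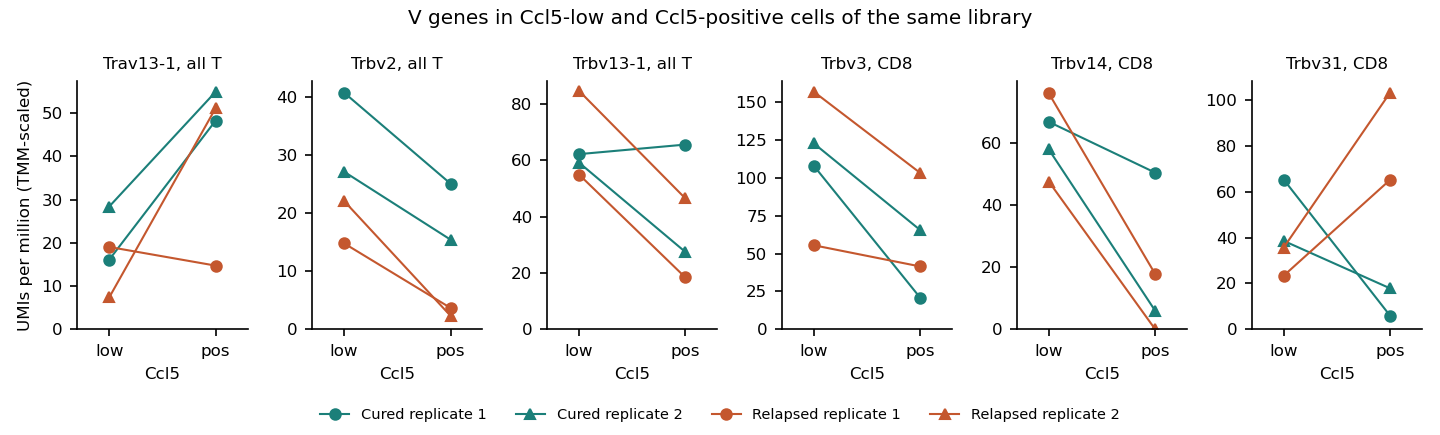
Lines join the Ccl5-low and Ccl5-positive cells of 1 library, in CPM (linear axes from 0, scaled for each gene), for 3 genes in all T cells and 3 in CD8 T cells. Trav13-1 rises in 3 of 4 libraries, Trbv2, Trbv3 and Trbv14 fall in 4 of 4, and Trbv31 falls in both Cured and rises in both Relapsed libraries.

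Among Trbv genes with at least 20 cells, the Ccl5-positive share of the cells ran from 20% for Trbv14 (7 of 35) to 43.8% for Trbv12-2 (32 of 73). The sister gene Trbv12-1 was at 26.0% (19 of 73). Trbv19 was at 41.3% (38 of 92), with 6 of 36, 18 of 27, 3 of 12 and 11 of 17 cells by library, so that 1 Cured library was low and the other high. Trbv19 did not pass the test of Ccl5 over all T cells.

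Both chains were called in 213 and 214 cells of the Cured and 78 and 124 cells of the Relapsed libraries. These 629 cells held 422 different pairs of a Trav and a Trbv gene, of which 84 occurred in more than 1 library and 2 in all 4 (Trav13-1 with Trbv19, and Trav12-1 with Trbv13-2). No pair was held by more than 4 cells of a library. The most frequent pair, Trav13-1 with Trbv19, was in 4, 4, 1 and 3 cells, of which 10 of 12 were Ccl5-positive, 6 CD8 and 0 CD4. Next came Trav9-1 with Trbv3, in 3, 4, 1 and 0 cells, 6 of 8 Ccl5-positive and 1 CD8. Trav13-1 with Trbv12-2 (7 cells) and Trav13-1 with Trbv4 (5 cells) were Ccl5-positive in 6 and 5 cells, whereas 2 of 6 cells with Trav13-1 and Trbv3 and 0 of 5 with Trav3-3 and Trbv12-2 were. A shared pair of V genes is not a shared clone, since the joining segments and junctions were not read.

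Concentration of usage was measured as the chance that 2 different cells of a library share a V gene. For Trbv it was 5.80% ± 0.0597 over the Cured and 5.98% ± 0.224 over the Relapsed libraries (SD, n = 2 each, exact permutation p = 0.667), and for Trav 2.36% ± 0.188 and 3.04% ± 0.139 (exact permutation p = 0.333). In Trbv the groups overlap and in Trav both Relapsed libraries were higher. Sharing of both chains was more frequent among Ccl5-positive than Ccl5-low T cells in 4 of 4 libraries, by 0.51 ± 0.40 percentage points (SD, n = 4, exact paired permutation p = 0.125, the smallest 4 libraries allow). The mean was 0.692% in Ccl5-positive and 0.184% in Ccl5-low cells. For Trbv alone the difference was 0.84 ± 1.45 percentage points, higher in 3 of 4 (exact paired permutation p = 0.375), and for Trav alone 0.57 ± 1.39, higher in 2 of 4 (p = 0.5). Within CD8 cells sharing of both chains was higher in 3 of 4 libraries, by 0.57 ± 0.43 points (exact paired permutation p = 0.25).

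The other genes of the receptor complex were read from a list of 13: the constant regions Trac, Trbc1 and Trbc2, the CD3 chains and Cd247, which carry its signal inward, the coreceptors, and the kinases and adaptor Lck, Zap70 and Lat. Between Cured and Relapsed libraries 0 of 13 passed in all T cells, where 0.0140% of all genes were called higher and 0% lower. In CD8 cells 0 of the 12 tested passed, where 0.122% were called higher and 0.350% lower. Both counts are near those shares. Over all T cells 7 of 13 were lower in Ccl5-positive cells and 0 higher, where 8.83% and 8.87% of all genes were. They were Cd8a (-0.73), Cd8b1 (-0.68), Cd4 (-1.26), Cd3e (-0.28), Cd3g (-0.27), Lat (-0.33) and Trbc2 (-0.41, SE 0.10, edgeR adjusted p = 0.00156), as log2 fold changes. Trac was at -0.17 (edgeR adjusted p = 0.360). In CD8 cells 3 of 12 were lower, where 5.69% of all genes were (Cd8a, Cd8b1 and Cd3g, -0.34 for the last). All 3 are genes by which these cells were gated, as are Cd3e and Cd3g over all T cells. The gate thus bears on these counts, and they cannot be set against the shares of all genes as free values. Cd247, the zeta chain, was lower in CD8 than in CD4 cells (log2 fold change -1.03, SE 0.20, edgeR adjusted p = 9.74e-05). Beside it only the coreceptors that define the classes passed in that comparison, 4 of 13 in all, where 4.74% of all genes were higher and 1.64% lower.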

How the data were processed

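The deposited values are raw UMI counts per gene and cell barcode, made by the authors with Cell Ranger 3.1.0 against mm10, per the submitters' processing notes, from 5′ libraries, per the labels' protocols. The annotation release and the treatment of reads that match several genes are not given in the sources used here. Barcodes with fewer than 200 genes or more than 10% mitochondrial UMIs were left out. No doublet caller was run, and cells over the limit on B cell UMIs were outside the T cell gate. UMIs were summed per library and class over all 32287 features. The sums were tested by quasi-likelihood in edgeR 4.0.16 under R 4.3.3 (robust fit, filterByExpr, TMM factors), with Benjamini-Hochberg adjustment over all features tested and a threshold of 0.05. Sums of the same library entered with the library as a block. CPM values were computed here with edgeR. DESeq2 1.42.0 was an alternative. Shares and ratios were compared with exact two-sided permutation tests over libraries. Intervals are exact binomial (Clopper-Pearson, 95%) and cover counting error only. The tests were tested on simulated counts with known changes.

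All 163 segments were matched by gene identifier to GENCODE M21 (GRCm38), which gave coordinates, types and sequences. A segment's own sequence is the percent of its 50-base stretches in no GENCODE transcript of another gene. B cells for comparison had at least 3 UMIs of Cd79a, Cd79b and Ms4a1 and none of Cd3d, Cd3e and Cd3g. The genes named are the most used of each chain, all past a test, the invariant chain genes, the leading pairs and the genes whose shares differed most without overlap, up to 3 in each direction. Trbv4, Trbv23, the shown copies Trav13d-1 and Trav13n-1, and pairs beyond the leading ones were chosen after their values were seen. The tests of whether a class effect differed between Cured and Relapsed were also chosen after the data were seen. The members and lists were chosen with earlier results of these data known.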

Additional observations from a re-analysis of the deposited data

Results flagged for a closer look

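The effect of Ccl5 on Trbv31 UMIs differed between the groups by the test of the difference itself (edgeR's quasi-likelihood test, adjusted over all genes). In CD8 T cells the effect in Cured minus that in Relapsed libraries was -3.61 on the log2 scale (SE 0.61, adjusted p = 0.00125). In all T cells it was -3.24 (SE 0.54, adjusted p = 0.00918), where 0.0898% of all genes passed. Over all T cells Trbv31 stood at 3.86 and 13.7 CPM in Ccl5-positive and 86.9 and 92.6 CPM in Ccl5-low cells of Cured libraries. In Relapsed libraries it stood at 44.2 and 62.8 against 25.4 and 81.1 CPM, so there the replicates went in opposite directions. Counted by top gene, 1 of 15 and 5 of 16 Trbv31 cells were Ccl5-positive in Cured libraries. In Relapsed libraries 3 of 8 and 8 of 16 were. Of all T cells, 29.9%, 34.5%, 30.3% and 39.3% were (Cured 1 and 2, Relapsed 1 and 2). In Cured replicate 2 the share by cells was thus near that of all T cells, unlike the UMIs. The tests share their libraries and most of their cells, and the difference was not recomputed without single libraries. They were chosen after the data were seen.

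Beta chain transcripts were also read outside the T cell gate. Of 14031 cells outside it, 117 had at least 2 Trbv UMIs (37 and 27 in Cured, 21 and 32 in Relapsed libraries). Of these, 102 had more than 1 UMI of Cd79a, Cd79b and Ms4a1 and 15 did not. No group had enough libraries for a test of single libraries against the others.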

How the results depend on the processing

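Counts of V genes past the test moved with the processing in every comparison. Between Cured and Relapsed libraries in all T cells the count of 0 became 1 with the replicate block and 4 with no count filter, and 0 to 9 with single libraries left out. In CD8 T cells the count of 3 became 0 with DESeq2, with thinned cells and in counts of cells with a UMI (with or without a count filter), 5 with no count filter, 4 with the replicate block, and 0 to 7 with single libraries left out. Calls over all genes moved too. In all T cells they were 10 higher and 17 lower of 7166 with the replicate block (36 V genes tested). With no count filter they were 16 and 14 of 13990 (98 V genes). In CD8 cells the same settings gave 10 and 20 of 5715 (26 V genes) and 12 and 12 of 13145 (94 V genes). There DESeq2 gave 0 and 1, thinned cells 0 and 0, and counts of cells 0 and 3. The numbers of the replicates were not taken as pairs: deviations of same-numbered libraries correlated at 0.0610 over 7166 genes in all T cells and 0.0101 over 5715 in CD8 cells, with 2 pairs.

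Between CD8 and CD4 cells the count of 7 became 2 with no replicate block (the library), 2 with DESeq2, 4 with CD4 cells by Cd4 or Cd40lg, 1 with thinned cells, 0 in counts of cells with or without a filter, and 6 to 7 with single libraries left out. In the last case 5 or 6 of the 7 were shared. With no count filter the count was 7 of 94 tested, of which 4 were shared, and Trbv1, Trbv3 and Trbv31 were lost. Calls over all genes were then 235 higher and 26 lower of 13326. They were 116 and 31 of 3162 with no replicate block and 96 and 25 with DESeq2. For Ccl5 in CD8 cells the count of 2 became 0 with no replicate block, 1 with DESeq2, 10 with no count filter, 2 with thinned cells (0 of them shared), 0 in counts of cells, 1 in counts of cells with no filter, and 3 to 5 with single libraries left out. In the last case 1 or 2 of the 2 were shared. Over all genes 99 were higher and 48 lower of 3231 with no replicate block, and 67 and 66 with DESeq2. With no count filter 252 and 273 of 13145 were, with 94 V genes tested. For Ccl5 in all T cells the count of 3 became 1 with no replicate block, 1 with DESeq2, 13 with no count filter, 1 in counts of cells, 2 with thinned cells (0 shared), 1 without cells with a Trdc or Ncr1 UMI, and 3 to 4 with single libraries left out. In the last case 1 or 2 of the 3 were shared. The gene called with DESeq2 and in counts of cells was Trbv3, not among the 3. Over all genes 240 were higher and 181 lower of 4452 with no replicate block, and 154 and 148 with DESeq2. With no count filter 510 and 472 of 13990 were, with 98 V genes tested.

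Directions reversed in counts of cells with a UMI: in CD8 cells Trbv13-2 went to -0.11 (-0.074 with no filter) and Trbv29 to -0.13 (-0.094), and in all T cells Trbv13-2 went to -0.10 (-0.060). Trbv13-1 with Ccl5 went to 0.032 with thinned cells. Fewer V genes could be tested in thinned cells and in counts of cells (1 to 23 of them), and beyond that the cause was not tested. Counts of cells with no filter were chosen after seeing the data. The difference in Trbv usage between group means was 12.3% by top gene, 10.2% by share of UMIs and 12.3% to 16.2% with single libraries left out.

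Depth limits these data: a library holds 12 to 40 CD4 cells, and 2 libraries per group allow no exact p under 0.333.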

Other observations

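Many T cells carried UMIs of a second Trbv gene, 22.6% and 23.6% of called cells in Cured and 14.3% and 24.0% in Relapsed libraries, and its identity varied with where the top gene lies. Trbv13-2, the most used gene, had a UMI in 219 cells and was the second gene in 77 of them (35.2%). Among cells whose top gene lies after it in the locus, 66 of 517 had a Trbv13-2 UMI, against 11 of 503 whose top gene lies before it. The means over libraries were 12.4% ± 6.03 and 2.18% ± 2.15 (SD, n = 4), and the difference of 10.3 ± 5.29 percentage points was positive in 4 of 4 libraries (exact paired permutation p = 0.125, the smallest that 4 libraries allow).

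Of 283 cases of a cell with a second Trbv gene, 28 had the next gene upstream of the top gene and 6 the next downstream. Of the 28, 20 were Trbv13-2 cells with a Trbv12-2 UMI, so the excess upstream rests largely on 1 pair of genes. Of 75 cells with Trbv13-3 as top gene, 23 had a Trbv13-2 UMI (30.7%), and without Trbv13-3 cells the share for later genes was 43 of 442 (9.73%). Trbv12-2, which lies just before Trbv13-2, was thus read in 20 of 131 Trbv13-2 cells (15.3%), and Trbv13-2 in 1 of 73 Trbv12-2 cells. Among Trav genes, 7 of 129 cases had the next gene upstream and 6 the next downstream. For Trbv12-2 as second gene the counts were 41 of 648 after it and 10 of 430 before it, a difference of 4.26 ± 2.65 percentage points in the same direction in 4 of 4 libraries (exact paired permutation p = 0.125). The same 20 Trbv13-2 cells are among the 41. Trbv31 was left out, since it lies on the other strand. The pattern was noticed in these data and then counted in them.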
